A study of Mus musculus with 38 samples.

Results

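The regions described here are the copies of MaLR elements (mammalian apparent LTR retrotransposons) in the mouse genome, chosen as every row of the deposited transposable element (TE) tables whose family name is ERVL-MaLR. This rule took 533387 of 3793386 TE copies (14.1%), in 65 subfamilies of 204 to 65071 copies, and used no measured value. MaLRs are non-autonomous relatives of the ERVL endogenous retroviruses. A complete copy has a long terminal repeat (LTR) on either side of an internal stretch that does not encode the retroviral proteins, and recombination between the LTRs often leaves a solitary LTR behind. The rodent lineages are MT (mouse transposon) and ORR1 (origin region repeat), and MLT1 is an older lineage shared among mammals. MT and ORR1 LTRs are known as promoters of chimeric transcripts in oocytes and early embryos.

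By lineage, ORR1B held 94707 copies (17.8% of MaLR), MLT1 81733 (15.3%), MTE 68149 (12.8%), MTD 54517 (10.2%), ORR1A 52783 (9.90%) and MTA, the lineage of MTA_Mm, 17917 (3.36%). Among the 65 subfamilies, 53 were LTRs with 443799 copies and 12 were internal parts, named with "-int", with 89588 copies (16.8%). The largest subfamily, ORR1B1-int, alone had 65071 copies against 19999 of its LTR, ORR1B1. The tables gave neither the position nor the sequence of a copy, so no element is shown as sequence here.

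The study asked how the nuclear lamina, the meshwork of lamins beneath the inner nuclear membrane, and LBR, a protein of that membrane, hold chromatin at the nuclear periphery. Mouse embryonic stem cells (mESCs) were kept in the naive state in 2i + LIF medium, or turned into epiblast-like cells (EpiLCs), which model the primed epiblast, with FGF and Activin A. CUT&RUN, in which an antibody guides a nuclease that releases the DNA nearby, mapped LAP2B, an inner nuclear membrane protein, in 4 genotypes at both stages. These were WT (wild type), LBRKO (knockout of Lbr, the lamin B receptor gene), TKO (knockout of all lamin genes) and QKO (knockout of the lamin genes together with Lbr). LMNB1 (lamin B1) and a control with rabbit anti-mouse antibody (IGG) were mapped in WT cells only. There were 36 libraries in 12 groups of 3, and 2 H3K9me3 samples were not analysed here. The QKO cells are 1 clone made from the TKO line, and the TKO and WT lines are separate littermate lines. Per the study, both TKO cell populations carried a trisomy, whereas most WT cells had normal ploidy and only some carried trisomies. Both lines included cells without the Y chromosome. A trisomy of the TKO line cannot be told apart from the loss of the lamins, and the part of copy number in the results was not tested. The study states in general that its experiments were repeated independently. The labels do not tie the 3 replicates of a group to separate cultures, so p-values measure the spread between these libraries, which may be technical. The DNA alone gives no expression markers with which to check the cell type.

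Each deposited value is a coverage signal of a copy, as RPKM (reads per kilobase, adjusted for the number of mapped reads) multiplied by a yeast spike-in factor, and is called the spike-in scale. For the relative scale, the median TE family of a library was set to 1. Every value checked was a whole multiple of the smallest step of its library (within 0.05 of a step), and the very highest values were not checked. The MaLR copies held 4934859 to 17649997 steps per library, with 8 to 29 in the median copy. Between 0.118% and 4.09% of MaLR copies were at 0. In all, 303307 MaLR copies (56.9%) had the same value as an adjacent row of the table in all 36 libraries, compared with 55.0% of all TE copies. Such copies share their bins, so the signal is that of a stretch of genome holding the copy rather than of the copy by itself.

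On the spike-in scale, LAP2B over MaLR elements fell in naive cells without lamins and fell further in naive QKO cells, as it did over nearly all TE families. The mean over all MaLR copies was 0.570, 0.878 and 0.625 for the WT libraries and 0.560, 0.635 and 0.737 for LBRKO. It was 0.266, 0.435 and 0.305 for TKO and 0.218, 0.183 and 0.210 for QKO. TKO and QKO lay below every WT library, whereas LBRKO overlapped with WT. Every QKO library also lay below every TKO library, but QKO was not tested against TKO. The part of sequencing depth in these levels was not tested. With limma across 1205 TE families (adjusted p under 0.05), 65 of 65 MaLR subfamilies were lower in TKO (99.6% of all families lower, 0.083% higher), with a median log2 change of -1.01 against -1.02 over all families. In QKO 65 of 65 were lower as well (99.8% of families lower, 0.083% higher), with a median of -1.67 against -1.75. In LBRKO, limma called 0 of 65 (9.13% of families lower, 0.083% higher), 1 subfamily had an unadjusted p under 0.05, and the median was -0.16.

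**Figure D1:**
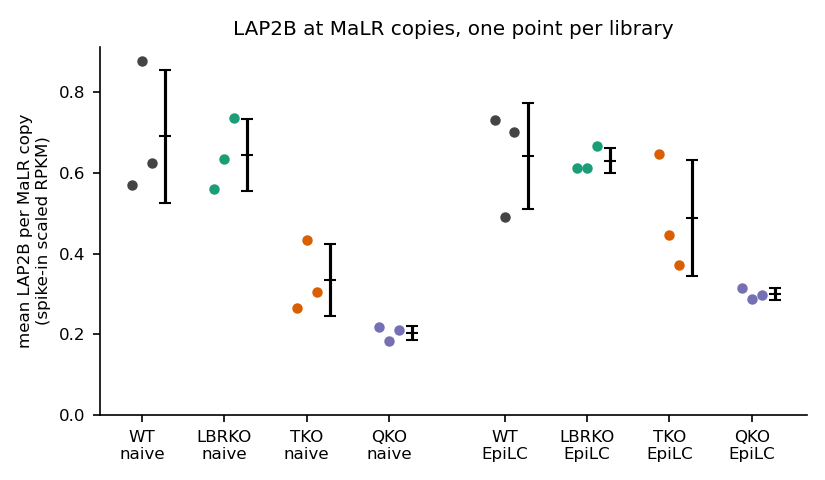
Mean LAP2B signal over the 533387 MaLR copies (spike-in scaled RPKM, y axis) in each library (points) by genotype and stage (x axis), with the group mean and SD of 3 libraries as the bar beside the points. The naive TKO and QKO libraries lie below all naive WT libraries, and the lowest LAP2B library is a naive QKO library at 0.183.

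In EpiLCs the log2 changes against WT were smaller on the spike-in scale, a difference between stages that was not tested. Judged against lamin B1, the study found LAP2B signal in WT EpiLCs both inside and outside lamina-bound stretches. It therefore did not use LAP2B to mark those stretches in EpiLCs, a limit on all EpiLC values of LAP2B given here. WT EpiLCs had 0.732, 0.491 and 0.702, LBRKO 0.613, 0.613 and 0.666, TKO 0.648, 0.446 and 0.372, and QKO 0.315, 0.287 and 0.296. The 3 QKO libraries lay below all others, and the TKO and WT libraries overlapped. All 65 subfamilies were lower in QKO (99.9% of families lower, 0% higher; median -1.01 against -1.05). In TKO limma called 1 of 65, MLT1-int (log2 change -0.59, SE 0.21, limma adjusted p = 0.044), with 31 at an unadjusted p under 0.05 (15.6% of families lower, 0% higher). That count rested on single libraries, with 62 called once WT replicate 2 was left out, 63 once TKO replicate 1 was, and 0 once WT replicate 1 or 3 or TKO replicate 2 or 3 was. In LBRKO 0 of 65 were called, 0 had an unadjusted p under 0.05, and 0% of families were called in either direction. The IGG control had 0.133, 0.0913 and 0.141 in naive cells and 0.176, 0.408 and 0.156 in EpiLCs. The IGG table was normalised apart from the LAP2B table, so these levels were not tested against each other. The part of background in the smaller EpiLC changes was not tested.

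Relative to other TE families, MaLR subfamilies changed unequally in naive QKO cells, with the internal parts of the ORR1A and ORR1B lineages in front. As all MaLR subfamilies fell on the spike-in scale, a relative rise here is a smaller loss than that of the median family. Of the 65 subfamilies, 37 were higher and 20 lower (38.2% of all families higher, 42.7% lower), and the median log2 change was 0.06 against -0.02 over all families. The split depended on the scaling. With each library divided by its mean TE copy it was 8 higher and 53 lower (157 and 900 of the 1205 families). With the median gene it was 3 higher and 61 lower (30 and 1144 of the families). These scales put the median of all families at -0.26 and -0.70. With the median over copies 12 subfamilies were higher and 11 lower (212 and 430 of the families). The 3 internal parts named next were higher under all of these settings.

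ORR1B1-int had a relative LAP2B level of 0.728, 0.673 and 0.758 in naive WT, and 1.77, 1.5 and 1.66 in naive QKO. The groups did not overlap, and every QKO library lay above 1 whereas every WT library lay below it. The log2 change was 1.09 (SE 0.04, limma adjusted p = 1.1e-13). ORR1A1-int went from 0.760, 0.708 and 0.787 to 1.69, 1.45 and 1.59, a log2 change of 0.98 (SE 0.04, limma adjusted p = 1.2e-13). ORR1A3-int went from 0.805, 0.756 and 0.834 to 1.63, 1.40 and 1.54, a log2 change of 0.86 (SE 0.04, limma adjusted p = 2.3e-13). These 3 internal parts had the lowest relative LAP2B of the 65 subfamilies in naive WT and, after MTC-int, the highest in naive QKO. With the median over copies in place of the mean, the changes were 1.07, 0.96 and 0.76 and were still called. In IGG, ORR1B1-int stood at 0.962, 1.00 and 0.979, between its WT and QKO levels of LAP2B. On the spike-in scale ORR1B1-int still lost signal in naive QKO, from 0.513 ± 0.099 to 0.294 ± 0.043 (SD, n = 3), a log2 change of -0.70 against -1.64 for its LTR.

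**Figure D2:**
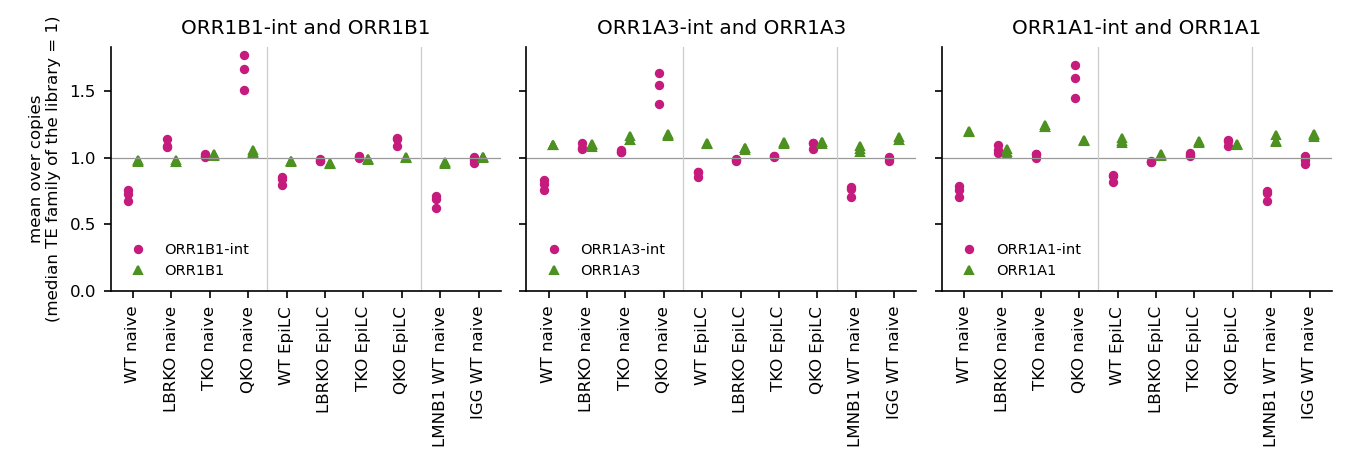
Relative LAP2B, LMNB1 and IGG level (median TE family of the library = 1, y axis) of ORR1B1-int, ORR1A3-int and ORR1A1-int and of the LTRs of the same name, by library (points) and group. The internal parts lie below 1 in naive WT and between 1.40 and 1.77 in naive QKO, while ORR1B1 stays between 0.968 and 1.06 in these groups.

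The LTRs of the same lineages moved little. ORR1B1 had 0.978, 0.968 and 0.976 in WT and 1.06, 1.03 and 1.04 in QKO, with no overlap but a log2 change of 0.09 (SE 0.01, limma adjusted p = 2.3e-06). Of the 53 LTR subfamilies, 33 were higher and 13 lower (38.2% of all families higher, 42.7% lower), with changes from -0.21 to 0.43 and a median of 0.06. For the LTR with the most copies in each rodent lineage, the change was 0.22 for ORR1A2, 0.20 for MTC, 0.14 for ORR1C2, 0.13 for ORR1D1, 0.10 for MTD, 0.09 for MTB, 0.07 for ORR1G, 0.06 for ORR1F and 0.04 for MTEa. With the mean TE copy or the median gene as scale all of these 9 LTRs, and ORR1B1, turned negative, so their direction is only relative to the median family. MTA_Mm (-0.06), ORR1E (-0.04) and, of the old lineage, MLT1A0 (-0.10) were lower on the relative scale. The mean TE copy and the median gene as scale shift all families downwards, so the sign of these 3 could not turn under them. MTEa was not called without WT replicate 2 (0.04, limma adjusted p = 0.093) or QKO replicate 2 (0.04, limma adjusted p = 0.055), and ORR1E was not called without any of WT replicates 1 and 3 and QKO replicates 1 and 3 (-0.03 to -0.04, limma adjusted p 0.067 to 0.082).

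The other internal parts went down or stayed. Of 12 internal subfamilies, 4 rose (the 3 ORR1 parts above and MTC-int), 7 fell and 1 was not called. MLT1-int, an internal part of the old lineage, had 1.14, 1.17 and 1.09 in WT and 0.851, 0.917 and 0.909 in QKO, a log2 change of -0.31 (SE 0.03, limma adjusted p = 4.2e-09) with no overlap between the groups. MLT1J-int fell by 0.22 on the log2 scale, MLT-int by 0.20 and MTE-int by 0.08. ORR1D-int fell by 0.09, a call that was lost without QKO replicate 1 (-0.08, limma adjusted p = 0.053). These internal parts therefore went the opposite way from those of ORR1A and ORR1B. In the MLT1 lineage as a whole, 15 of 34 subfamilies were higher and 13 lower, close to the shares of all families (38.2% higher, 42.7% lower). The LTR MLT1E1 fell by 0.21, while MLT1K, MLT1O, MLT1M and MLT1J, chosen after their values were seen, changed by 0.43, 0.39, 0.37 and 0.33. These are changes relative to the median family, and each is smaller than the shift that the median gene as scale would bring. MLT1K had 0.890, 0.824 and 0.900 in WT and 1.24, 1.17 and 1.21 in QKO, again with no overlap.

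**Figure D3:**
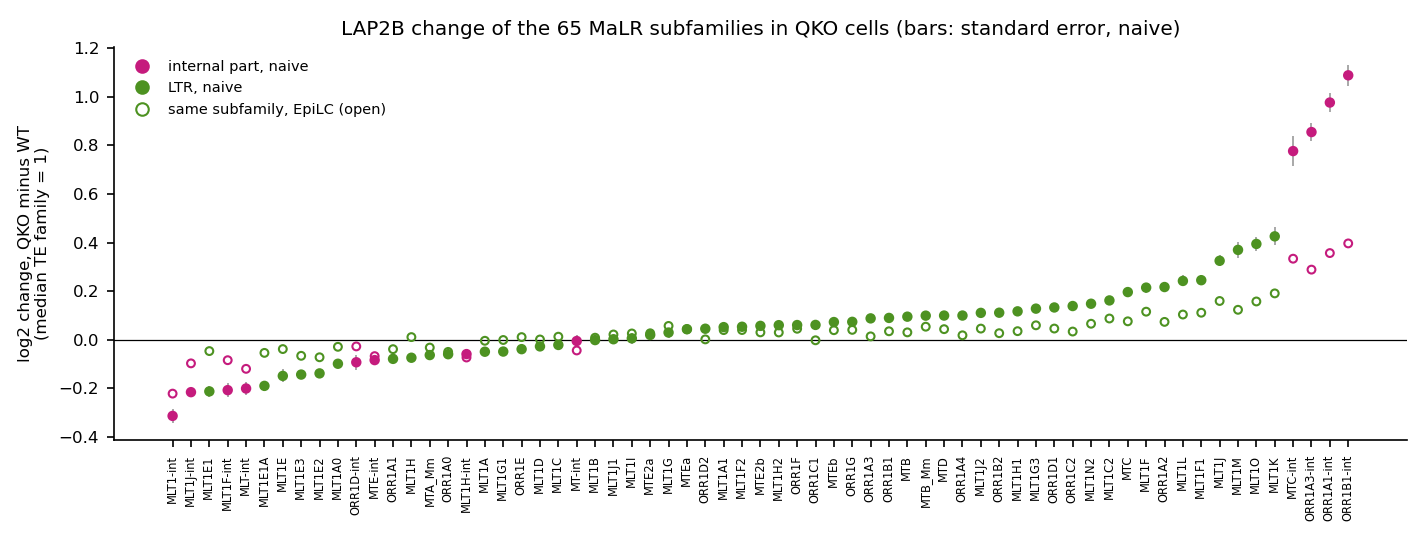
Log2 change of relative LAP2B in QKO against WT (y axis) for each of the 65 MaLR subfamilies (x axis, ordered by the naive change), in naive cells (filled, with the standard error) and EpiLCs (open), with 0 as no change relative to the median family. ORR1B1-int leads at 1.09 in naive cells and 0.40 in EpiLCs, and MLT1-int is lowest at -0.31 and -0.22.

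MTC-int, the internal part of the MTC lineage, rose in the mean but not in the median copy. Its relative level was 1.16, 1.17 and 1.17 in naive WT, 1.54, 1.61 and 1.61 in TKO and 2.09, 1.77 and 2.41 in QKO, a log2 change in QKO of 0.78 (SE 0.06, limma adjusted p = 1.4e-09). With the median over copies the change was -0.11 (limma adjusted p = 0.13). The 15 highest of its 1517 copies, taken anew in each group, held 52.1% of its summed signal in naive QKO, 33.0% in TKO and 7.54% in WT. Without them the mean was 1.01 in QKO and 1.09 in WT, so that the rise of MTC-int was in a handful of copies. In naive IGG the 15 highest copies held 61.1%, and the subfamily stood at 3.59, 2.08 and 2.19. Whether these are the same copies as in QKO was not tested.

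In naive cells lacking only the receptor or only the lamins, ORR1B1-int had the largest relative gain of the 65 subfamilies as well. In LBRKO 27 subfamilies were higher and 19 lower (31% of all families higher, 41.8% lower), with a median of 0.01 against -0.03, and in TKO 30 were higher and 9 lower (33.3% higher, 20.7% lower), with a median of 0.02 against 0.02. The 3 genotypes share the WT libraries as control. ORR1B1-int stood at 1.08, 1.09 and 1.14 in LBRKO and at 1.01, 1.02 and 1.01 in TKO. Both groups lay above all WT libraries and below all QKO libraries. The log2 changes were 0.55 (SE 0.04, limma adjusted p = 1.4e-09) in LBRKO and 0.45 (SE 0.04, limma adjusted p = 4.1e-07) in TKO. ORR1A1-int changed by 0.45 in LBRKO and 0.39 in TKO, and in TKO MTC-int stood between it and ORR1B1-int at 0.41. With the median gene as scale the TKO changes of ORR1B1-int and ORR1A1-int became -0.02 and -0.08 and neither was called. The lowest in LBRKO were MLT1-int (-0.28), ORR1D-int (-0.23) and MT-int (-0.22), and in TKO MLT1J-int (-0.13), MLT1-int (-0.12) and the LTR MLT1E (-0.12). With the median over copies TKO had 7 higher and 1 lower (162 and 58 of all families), and MLT1E stood at 1.00 in both WT and TKO. With the mean TE copy as scale the calls became 12 higher and 33 lower in LBRKO and 4 higher and 51 lower in TKO. Over the 1205 families these were 259 and 604, and 148 and 645. With the median gene the calls were 2 and 58 in LBRKO (28 and 1065 of all families) and 0 and 62 in TKO (5 and 1162).

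Single copies were tested in the naive contrasts with limma over 3790812 TE copies, of which 533152 were MaLR (the others were under 0.1 of the median copy). In QKO 112071 MaLR copies were higher (21.0%) and 86604 lower (16.2%), compared with 22.7% and 16.9% of all copies tested. In LBRKO 61117 were higher (11.5%) and 35836 lower (6.72%), against 12.5% and 7.56%, and in TKO 31816 were higher (5.97%) and 9048 lower (1.70%), against 6.71% and 1.67%. MaLR copies as a whole were therefore called at about the rate of any TE copy. The LBRKO total went to 53091 without WT replicate 2 and 60410 without LBRKO replicate 3, and the TKO total to 18394 without WT replicate 2 and 26316 without TKO replicate 2.

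The subfamilies differed among themselves at the level of copies too. Of the 65044 ORR1B1-int copies tested, 46.3% were higher in QKO and 6.40% lower. For ORR1A1-int these shares were 44.0% and 7.87%, and for ORR1A3-int 38.8% and 8.38%. On the same relative scale the LTR ORR1B1 had 16.6% higher and 17.4% lower, and MTD 17.3% and 17.2%, against 22.7% and 16.9% of all copies. MLT1-int had 11.9% higher and 28.9% lower. As most copies share their bins with an adjacent row, these counts are not counts of independent loci.

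The change of a copy went both with its subfamily and with what stood beside it in the table. This split was chosen after the values were seen, and is a description with no test. As 56.9% of MaLR copies had the same value as an adjacent row, a copy and its neighbour are often the same reading. Part of the agreement between them is thus built in. The tables hold no coordinates, so the order of their rows was not checked against the genome, and the part of the repeat annotation in these neighbours was not tested. Among the adjacent rows of ORR1B1-int copies that were not MaLR, 53.9% were Alu copies, which in mouse are the B1 short interspersed elements, compared with 55.4% for ORR1A1-int, 45.9% for ORR1A3-int, 15.3% for MaLR LTRs and 17.1% for all TE copies. A MaLR LTR stood beside 7.35% of ORR1B1-int copies, 47.9% of MTE-int copies and 44.5% of MaLR LTR copies. Most copies annotated as ORR1B1-int were thus not next to an LTR of their kind. On the relative scale Alu families themselves rose in naive QKO, 15 of 15 (38.2% of all families higher), with a median log2 change of 0.90.

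Copies of MaLR LTRs beside an Alu copy and no other MaLR LTR (66936, 15.1% of LTR copies) had a relative LAP2B level of 0.927, 0.883 and 0.946 in naive WT and 1.47, 1.34 and 1.42 in naive QKO, a log2 change of 0.62. Those beside a MaLR LTR (197334) changed by -0.01 and those beside neither (179529) by -0.06. Among ORR1B1-int copies, the 50772 beside an Alu copy changed by 1.28, the 9516 beside neither by 0.94 and the 4783 beside a MaLR LTR by 0.71. MTE-int fell as a subfamily, yet its 671 copies beside an Alu copy changed by 0.57, against -0.16 for those beside a MaLR LTR and -0.26 for those beside neither. With the median gene as scale the median of all families lay at -0.70 in place of -0.02, a shift larger than the gains of the LTR and MTE-int copies beside an Alu copy, so their direction holds only relative to the median family. The rows beside ORR1B1-int copies, themselves no MaLR, changed by 1.18. The changes of the split and of these rows were taken without the pseudocount that limma used (0.1 of the median family). They are therefore not to be set against the limma change of 1.09 for ORR1B1-int.

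**Figure D4:**
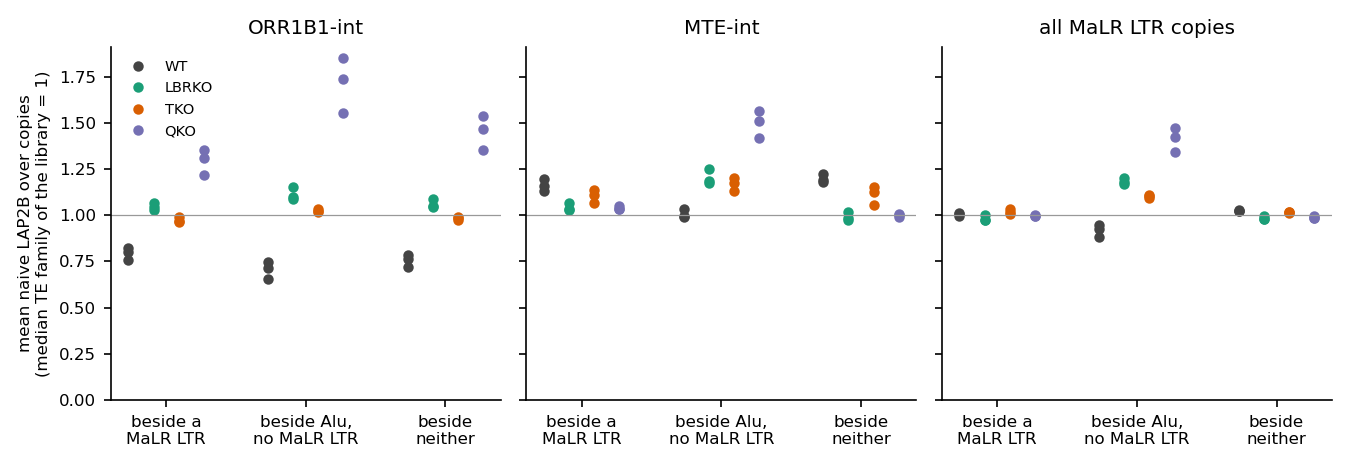
Relative naive LAP2B level (median TE family of the library = 1, y axis) of ORR1B1-int, MTE-int and all MaLR LTR copies, split by what stands in the adjacent rows of the table, for the 4 genotypes (1 point per library, 3 per genotype). Adjacent rows often share bins and so have the same value. Copies beside an Alu copy are higher, relative to the median family, in every QKO library than in every WT library in all 3 panels, with changes of 1.28, 0.57 and 0.62 on the log2 scale, and ORR1B1-int is also higher in QKO beside a MaLR LTR and beside neither.

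To describe how relative LAP2B was spread along a gradient of LMNB1, MaLR copies were put in 4 classes by WT LMNB1 of the same stage. The classes were of equal size, with 133347 copies (133346 in the class with the most LMNB1). As all MaLR subfamilies fell in naive QKO on the spike-in scale, a higher class level there is only relative to the median family. In naive WT the mean relative LAP2B rose over the classes from 0.451 through 0.685 and 0.980 to 1.73. In naive QKO it was 1.12, 1.16, 1.02 and 1.26, so that the classes lay close together. In IGG it was 0.786, 0.934, 1.01 and 1.44. The log2 ratio of the class with the most LMNB1 to that with the least was 1.95 ± 0.23 for WT (SD, n = 3). It was 1.19 ± 0.18 for LBRKO, 1.20 ± 0.18 for TKO and 0.17 ± 0.07 for QKO, against 0.87 ± 0.17 for IGG. The WT libraries (1.74 to 2.20) lay above all knockouts, and the QKO libraries (0.11 to 0.24) lay below all IGG libraries (0.75 to 1.07). Among these groups of 3 no exact test can go below 0.10, and none was run.

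In EpiLCs the gradient was shallower in WT, and in QKO it fell less than in naive cells, to the range of IGG. The study did not rely on LAP2B as a mark of lamina contact at this stage, so these gradients are no measure of that contact. LMNB1 itself parted its classes less in EpiLCs, with a log2 ratio of 2.07 against 2.53 in naive cells. For LAP2B the ratio was 1.41 ± 0.12 for WT, 1.23 ± 0.04 for LBRKO, 0.957 ± 0.0011 for TKO and 0.84 ± 0.01 for QKO, with 0.90 ± 0.05 for IGG. Each knockout lay below all WT libraries. The TKO libraries lay above all IGG libraries, from 0.84 to 0.94, and the QKO libraries, from 0.83 to 0.85, overlapped with IGG. Classes set by LMNB1 over IGG gave larger losses at both stages, of -2.33 in place of -1.78 for naive QKO and -0.93 in place of -0.57 for EpiLC QKO.

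**Figure D5:**
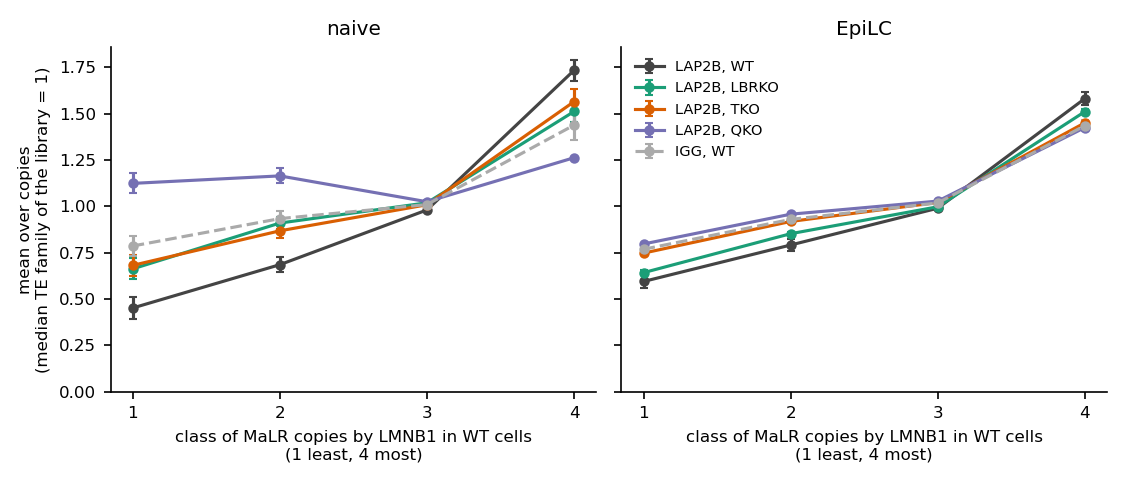
Mean relative LAP2B and IGG (median TE family of the library = 1, y axis) over MaLR copies in 4 classes of WT LMNB1 (x axis, from least to most), in naive cells and EpiLCs, by genotype (mean and SD of 3 libraries). The naive QKO line is the flattest, from 1.12 to 1.26, whereas naive WT runs from 0.451 to 1.73. A higher level is only relative to the median family.

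The subfamilies were not spread evenly over these classes. By LMNB1 over IGG in naive WT, 14.8% of ORR1B1-int, 16.8% of ORR1A3-int, 16.9% of ORR1A1-int and 15.4% of MLT1K copies were in the highest of 4 equal classes. MTD had 27.1% and ORR1B1 27.4% there, MTE-int 37.2% and MLT1-int 48.6%. MTC-int had 36.3%. These 9 were picked with their changes in naive QKO known, so nothing is read from their order.

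LAP2B was also set against IGG, with each placed relative to the median TE family of its library. The ratio therefore ranks subfamilies and does not measure enrichment over IGG. The tables were normalised apart, so these values carry no test. Each library was divided by the mean of the IGG libraries, so the SDs leave out the spread of IGG. The log2 of relative LAP2B over relative IGG in naive WT had a median of -0.06 over the subfamilies, with 16 above 0 and 49 below. It was 0.26 ± 0.05 (SD, n = 3) for MLT1-int, -0.07 ± 0.01 for MTD, -0.04 ± 0.01 for ORR1B1 and -0.45 ± 0.09 for ORR1B1-int. MTC-int was lowest at -1.17, but its IGG libraries were far apart, at 3.59, 2.08 and 2.19. In naive QKO ORR1B1-int was the highest, at 0.74 ± 0.12, and MLT1-int was at -0.09 ± 0.06. For LMNB1 in naive WT the order was like that of LAP2B, with MLT1-int at 0.33 ± 0.08 and ORR1B1-int at -0.54 ± 0.10. As a share of all TE signal, the MaLR mean hardly moved. Its log2 ratio to the mean TE copy was -0.10 ± 0.01 in naive WT, and the knockouts differed from WT by 0.03 (LBRKO), -0.02 (TKO) and -0.02 (QKO) in naive cells and by 0.02 each in EpiLCs. The sign of several of these small differences turned with another baseline.

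In EpiLCs fewer MaLR subfamilies were called in each knockout than in naive cells, as was so for all TE families. Numbers of calls are not a test between the stages. ORR1B1-int again had the largest relative gain. In LBRKO 11 were higher and 15 lower (18.9% of all families higher, 28.7% lower), in TKO 22 higher and 7 lower (14.6% higher, 18.4% lower), and in QKO 28 higher and 11 lower (22.6% higher, 26.7% lower). The medians were -0.01, 0.03 and 0.03 against -0.02, -0.01 and -0.01 over all families. Without WT replicate 1 the calls became 16 in TKO and 23 in QKO. With the mean TE copy as scale the calls were 8 higher and 15 lower in TKO and 9 higher and 26 lower in QKO. Over the 1205 families these were 93 and 376, and 133 and 549. With the median gene they were 0 and 54 in TKO (5 and 918 of all families) and 2 and 58 in QKO (14 and 1072).

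ORR1B1-int had 0.792, 0.851 and 0.841 in WT EpiLCs and 0.973, 0.975 and 0.986 in LBRKO. TKO stood at 1.01, 1.00 and 0.994, and QKO at 1.14, 1.14 and 1.08. No group overlapped with WT. The log2 changes were 0.22 for LBRKO (limma adjusted p = 0.00044), 0.25 for TKO (limma adjusted p = 0.00031) and, in QKO, 0.40 (SE 0.04, limma adjusted p = 1.7e-06). The TKO value was not called with the median over copies (0.22, limma adjusted p = 0.065) or the median gene (0.07, limma adjusted p = 0.18). ORR1A1-int changed by 0.17, 0.24 and 0.36. In LBRKO the LTR MLT1M changed by 0.18, and in QKO MTC-int changed by 0.33. MLT1-int was the lowest in all 3 genotypes, at -0.20, -0.16 and -0.22. With the median over copies MLT1-int changed by -0.16, -0.083 and -0.16 and was not called in any of the 3 (limma adjusted p 0.089 to 0.63).

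The change of ORR1B1-int was smaller in EpiLCs than in naive cells, by -0.69 in QKO (SE 0.06, limma adjusted p = 1.3e-07) and -0.34 in LBRKO (SE 0.06, limma adjusted p = 0.0012). This test of the difference between stages called 9 subfamilies higher and 27 lower in QKO (24.7% of all families higher, 29% lower), 2 higher and 13 lower in LBRKO (14.3% higher, 12.4% lower) and 1 higher and 6 lower in TKO (2.07% higher, 16.5% lower). With the mean TE copy as scale these became 54 and 4, 12 and 3, and 23 and 0. Over the 1205 families they were 780 and 96, 342 and 66, and 114 and 85. The LBRKO total went from 15 to 6 without WT naive replicate 2 and to 9 without LBRKO naive replicate 3 or WT EpiLC replicate 2 or 3, and the TKO total from 7 to 2 without any of 6 libraries, WT naive replicate 2 among them. With the median gene as scale the counts became 61 and 3, 59 and 0, and 61 and 0. Over all families they were 1074 and 24, 999 and 2, and 911 and 8. The counts thus rest on the scale. The ORR1B1-int value in QKO was called under each scale tried (-0.50 with the mean TE copy and -0.27 with the median gene), and that in LBRKO was not called with the median gene (-0.066, limma adjusted p = 0.34).

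Between the stages in WT cells, the direction of the LAP2B changes depended on the scale. Relative to the median family, 15 subfamilies were higher in EpiLCs and 5 lower (14.2% of all families higher, 13.4% lower), with a median of 0.02 against -0.00. With the mean TE copy as scale 4 were higher and 16 lower (72 and 314 of the 1205 families). With the median gene 0 were higher and 65 lower (3 and 1163 of the families), with a median of -0.27 against -0.29 over all families. ORR1B1-int rose by 0.18 (SE 0.04, limma adjusted p = 0.0066), followed by ORR1A1-int (0.16) and MLT1K (0.13), and with the median gene as scale these turned to -0.10, -0.13 and -0.16. ORR1A0 was lowest, at -0.09. The count went from 3 to 24 as single libraries were left out, with 12 without WT naive replicate 1, 4 without WT naive replicate 2, 3 without WT EpiLC replicate 2 and 7 without WT EpiLC replicate 3. ORR1A1-int was not called without WT naive replicate 2 (0.12, limma adjusted p = 0.077) or WT EpiLC replicate 2 (0.15, limma adjusted p = 0.054), and MLT1K was not called without WT naive replicate 2 (0.10) or WT EpiLC replicate 2 or 3 (0.13 and 0.12). For LMNB1 limma called 0 of 65 (0.083% of families higher, 0.83% lower), with 2 at an unadjusted p under 0.05. For IGG it called 0 of 65 (0.083% higher, 0.166% lower), with 3 at an unadjusted p under 0.05.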

How the data were processed

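The data are CUT&RUN libraries of mouse cells. Per the study's methods and the submitters' processing notes, the authors aligned read pairs with Bowtie2 (2.3.5.1) to mm39, with yeast (sacCer3) spike-in DNA, filtered them with SAMtools (1.10) and computed coverage with deepTools. The deposited signal of each TE copy is RPKM coverage multiplied by a spike-in factor. The smallest step of TE values was 0.881 to 0.941 of that of gene values in the same library. The methods name 10 kb bins for TEs, and the width behind the deposited values was not settled from the files. The authors' table of modified z scores was not used.

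Values were averaged over the copies of each TE family. Families of at least 10 copies (1205 of 1237) were tested with limma (3.58.1, R 4.3.3; linear model, empirical Bayes with trend, two-sided, Benjamini-Hochberg) on log2(mean + pseudocount), with a pseudocount of 0.1 of the median family, so changes of low families are understated. A single model held the 24 LAP2B libraries; the 6 LMNB1 and 6 IGG libraries had their own. Called means an adjusted p under 0.05 over all families. Copies were tested alike where their mean was at least 0.1 of the median copy. Named subfamilies are the 3 highest and 3 lowest called per contrast (of at least 100 copies) and, in naive QKO, the LTR and internal subfamily with the most copies of each lineage. Members and lists were chosen with earlier results of these data known. Summaries used Python 3.11.15, numpy 2.4.6 and pandas 2.3.3.

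Replicates differed by more than counting error (chi-square per degree of freedom 2.24 to 2.72 over 36 pairs), and none was merged. The limma step was tested on simulated data for naive QKO against WT. Over 1205 families it recovered 88% of changes of 0.3 (log2) and 100% of 0.6, with 2 false calls. Over 49962 copies it recovered 60% of changes of 2 and 90% of 3, with 13 false calls. The simulated copies varied independently, whereas many real copies share their bins, so the rates for copies may not hold for the data. Replicate numbers were checked for pairing by the correlation of deviations from the group means. For naive WT and QKO all 3 same-numbered pairs correlated (0.149, 0.265 and 0.195), but the median over all combinations was -0.005. Libraries of unlike number were not compared, so these values do not establish pairing. In no other combination of LAP2B groups did every pair exceed 0.1 (84 pairs in all, -0.33 to 0.32, 19 above 0.1).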

Additional observations from a re-analysis of the deposited data

Results flagged for a closer look

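The values listed here differed between the stages under the same loss, by the limma test of the difference (effect in EpiLCs minus effect in naive cells, relative scale). For LBRKO 15 subfamilies differed (14.3% of all families higher, 12.4% lower). Among them were MLT1E1 (0.12), MLT1F-int (0.11), ORR1B1-int (-0.34), ORR1A1-int (-0.28) and ORR1A3-int (-0.25). With the median over copies 1 subfamily was called, and with the median gene ORR1A3-int turned to 0.022. For TKO 7 differed (2.07% of all families higher, 16.5% lower), among them MLT1H (0.091), MTC-int (-0.27), ORR1B1-int (-0.20) and ORR1A3-int (-0.17). With the median over copies 0 were called in TKO and MLT1H turned to -0.046. With the median gene MTC-int, ORR1B1-int and ORR1A3-int turned to 0.032, 0.089 and 0.12. For QKO 36 differed (24.7% of all families higher, 29% lower), and 6 with the median over copies. Among the 36 were MLT1E1 (0.17), MLT1E1A (0.14), MLT1F-int (0.12), ORR1B1-int (-0.69), ORR1A1-int (-0.62) and ORR1A3-int (-0.57). The QKO differences of the 3 ORR1 internal parts had limma adjusted p of 1.3e-07 to 1.4e-07. In TKO the differences of ORR1B1-int and ORR1A3-int were each lost without WT naive replicate 2 (-0.16 and -0.14, both limma adjusted p = 0.090), among other single libraries.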

How the results depend on the processing

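The pseudocount of 0.5, the filters on copies per family (none, or at least 100), the copy filter and the replicate number as a block changed few calls. Of the counts of subfamilies and copies, the pseudocount moved only the spike-in count of EpiLC TKO by over 1.5 times (to 2). The replicate block moved only that count so far (to 0, with MLT1-int no longer called). On the relative scale the block changed no call of a named subfamily. Under the block, naive QKO had 57 subfamilies and 198058 copies called, against 57 and 198675 without it.

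With the median over copies, fewer subfamilies were called on the relative scale: 19 (naive LBRKO), 8 (naive TKO), 23 (naive QKO), 5 (EpiLC LBRKO), 0 (EpiLC TKO), 4 (EpiLC QKO), 2 (WT EpiLC against naive), and 1, 0 and 6 for the differences between stages of LBRKO, TKO and QKO. On the spike-in scale it gave 2 (naive LBRKO) and 4 (EpiLC TKO). Named changes that turned were MTC-int (-0.0091 in naive TKO, -0.11 in naive QKO, -0.066 in EpiLC QKO), ORR1C2 in naive QKO (-0.0065) and the stage difference of MLT1H in TKO (-0.046). With the median gene as scale the counts were 62 (naive TKO), 9, 54 and 60 (EpiLC LBRKO, TKO and QKO), 65 (WT EpiLC against naive, all lower), 59, 61 and 64 (the stage differences of LBRKO, TKO and QKO) and 2 (IGG). With the mean TE copy they were 23 and 58 for the stage differences of TKO and QKO. The cause was not tested.

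Naive QKO changes that turned with the mean TE copy, followed by their value with the median gene, were MTB (-0.15, -0.59), MTC (-0.049, -0.48), MTD (-0.14, -0.58), MTEa (-0.20, -0.63), ORR1A2 (-0.030, -0.47), ORR1B1 (-0.15, -0.59), ORR1C2 (-0.10, -0.53), ORR1D1 (-0.11, -0.54), ORR1F (-0.18, -0.61) and ORR1G (-0.17, -0.60). With the median gene alone the turned values were ORR1B1-int (-0.022), MTC-int (-0.079) and ORR1A1-int (-0.078) in naive TKO, ORR1A3-int (-0.0023) in EpiLC TKO, ORR1B1-int (-0.10), ORR1A1-int (-0.13) and MLT1K (-0.16) in WT EpiLC against naive, and the stage differences of ORR1A3-int in LBRKO (0.022) and of MTC-int (0.032), ORR1B1-int (0.089) and ORR1A3-int (0.12) in TKO. With the median gene the median of all families lay at -0.36, -0.46 and -0.70 in naive LBRKO, TKO and QKO and at -0.07, -0.19 and -0.27 in EpiLCs, and a change of scale moves all families of a library alike.

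Leaving out single libraries gave 43 to 45, 30 to 40 and 54 to 56 subfamilies in naive LBRKO, TKO and QKO, 21 to 24, 16 to 31 and 23 to 37 in EpiLCs, 3 to 24 for WT EpiLC against naive, and 6 to 18, 2 to 7 and 32 to 39 for the stage differences. The LBRKO stage count was 6 without WT naive replicate 2 and 9 without LBRKO naive replicate 3, WT EpiLC replicate 2 or WT EpiLC replicate 3. The TKO stage count was 4 without WT naive replicate 1, and 2 without WT naive replicate 2, WT EpiLC replicate 3, TKO naive replicate 1 or 3, or TKO EpiLC replicate 2 or 3. The EpiLC TKO count on the spike-in scale ranged from 0 to 63. Copies called ranged from 53091 to 78298 in LBRKO, 18394 to 36487 in TKO and 150327 to 185342 in QKO.

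The MaLR share of TE signal was too small a difference to keep its sign. With the median over copies, the ERVL mean as baseline and subfamilies weighted equally it was -0.023, 0.041 and -0.035 in naive LBRKO, -0.072, 0.017 and -0.074 in naive TKO, -0.036, 0.069 and -0.16 in naive QKO, and -0.055, 0.012 and -0.0030 in EpiLC LBRKO. In EpiLC TKO the ERVL baseline gave 0.031 and equal weights -0.012, and in EpiLC QKO the median gave 0, ERVL 0.038 and equal weights -0.025. The loss of the LMNB1 gradient kept its sign under every alternative. With classes by LMNB1 over IGG it was -1.13, -0.98 and -2.33 in naive LBRKO, TKO and QKO and -0.40, -0.72 and -0.93 in EpiLCs, with LTR copies alone -1.58 in naive QKO, and with the median over copies -0.69 in EpiLC QKO. Without single libraries it ranged from -1.88 to -1.65 in naive QKO. The median copy held 8 to 29 steps, and how far depth limits the calls of single copies was not tested.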
